A study of Mus musculus with 2 samples.

Results

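Endothelial cells (ECs) of the mouse AGM, the aorta-gonads-mesonephros region that holds the dorsal aorta at embryonic day 11 (E11), were taken by their UMIs of Cdh5 and Pecam1. A UMI (unique molecular identifier) counts a captured mRNA molecule. Among barcodes with at least 2000 UMIs and under 10% mitochondrial UMIs, a cell was a member when Cdh5 and Pecam1 together had at least 5 UMIs, when the globin genes Hbb-y, Hbb-bh1, Hba-x, Hba-a1 and Hba-a2 held under 5% of its UMIs and when C1qa, C1qb and C1qc together had no more than 2. In all, 174 of 16418 cells were ECs by this rule. They were 86 of 8253 WT cells (1.04%, exact binomial 95% interval 0.834 to 1.29%) and 88 of 8165 KO cells (1.08%, 0.865 to 1.33%).

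The study asked how loss of PDGFRβ, the receptor through which perivascular cells respond to PDGF-B, alters the cells around and in the aorta. Whole AGMs were dissociated with collagenase, and droplet libraries of mRNA 3′ ends (10x Chromium) were made from their cells, 1 from PDGFRB +/+ embryos (WT) and 1 from PDGFRB -/- embryos (KO), each loaded for 7000 cells. The mutant line carries its null allele in every cell of the embryo and was kept as heterozygotes on C57BL/6J, and the labels name no drug or other agent for either group. The number of embryos behind each library is not given in the sources used here.

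The WT library held 179743201 UMIs and the KO library 174597654. The ECs held 3544652 UMIs in WT and 4805204 in KO, with medians of 38238.5 and 48929.5 UMIs per cell, whereas all other cells had medians of 13237 and 12330. Levels are given in CPM, counts per 1e6, the UMIs of a gene scaled to the UMIs of all genes over the summed ECs of a library, and differences as the log2 ratio of KO over WT. With 1 library per genotype no test was possible, cells are not replicates, and every interval is at 95% and covers counting error only, not the variation between embryos. Xist, the RNA that coats the inactive X chromosome, had 1988 UMIs in WT ECs and 3 in KO ECs, and the Y-linked genes Ddx3y, Eif2s3y, Kdm5d and Uty had 274, 219, 89 and 86 UMIs in KO ECs and 0 in WT ECs. Genotype, sex and library therefore changed together and cannot be told apart in any ratio below.

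ECs line all blood vessels and are joined by VE-cadherin, the product of Cdh5. Arterial ECs are specified through VEGF and Notch signalling and carry Efnb2, the connexins Gja4 and Gja5 and the Notch targets Hey1 and Hey2, while venous ECs carry Nr2f2, which holds Notch signalling down, Ephb4 and Nrp2. In the AGM some ECs of the dorsal aorta are hemogenic and give rise to blood cells, and ECs secrete PDGF-B, to which PDGFRβ+ mural cells are recruited.

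The label was checked against Kdr (VEGFR2) and Cd34, which the rule did not use. Kdr had a UMI in 86 of 86 WT ECs and in 84 of 88 KO ECs, at 409 and 463 CPM, while it was seen in 3.01% and 2.21% of the cells with 5% or more globin UMIs, whose median depths were 16844 and 19646 UMIs. Cd34, a sialomucin of ECs and blood progenitors, was seen in 81 and 82 ECs, at 347 and 401 CPM. All of Cdh5, Pecam1, Kdr and Cd34 were found together in 80 WT and 80 KO members, of which Cdh5 and Pecam1 had been used by the rule. The threshold passed through a thin stretch: 3 WT cells and 1 KO cell had 5 or 6 UMIs of Cdh5 and Pecam1, of which 3, with 1 or 2 UMIs each, and 0 had Kdr, and 19 and 9 cells just outside had 3 or 4 UMIs, of which 9 and 1 had Kdr.

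The label was in doubt first for 7 members that had no Cdh5 UMI, 2 in WT and 5 in KO, which held 6.48% and 9.74% of the EC UMIs. The marker genes that describe them were chosen after their values were seen. Both WT cells carried Pf4, a platelet chemokine, at 4695 and 1654 UMIs together with Ppbp, Itga2b and Gp9, and 1 KO cell carried it at 4069 UMIs. A further 3 KO cells had no Kdr and carried genes known from germ cells and pluripotent cells, with 48, 28 and 24 UMIs of Pou5f1 (OCT4) and 110, 104 and 46 of Dppa3. The last KO cell had 10 UMIs of Ptprc (CD45) and 7 of Spi1 but no Kdr. Among the members with Cdh5, 1 WT cell of 34846 UMIs had 2 UMIs of Cdh5, 4 of Pecam1, 1 of Kdr and 0 of Cd34, Tie1, Cldn5 and Egfl7, so its label was in doubt as well. Members with 1000 or more Pf4 UMIs numbered 3 in WT and 2 in KO, of which 1 in each library had Cdh5, and they held 7446 of 7711 and 6410 of 6514 Pf4 UMIs. The 3 KO cells held 100 of the 109 Pou5f1 UMIs. The KO over WT ratios of Vwf, Chchd10, Pou5f1, Apln, Pdgfa, Runx1, Kit and Adgrg1 are given below with and without the members that lack Cdh5. In the plot of Cdh5 against Kdr UMIs, these members lie along the left edge, away from the body of the ECs.

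**Figure D1:**
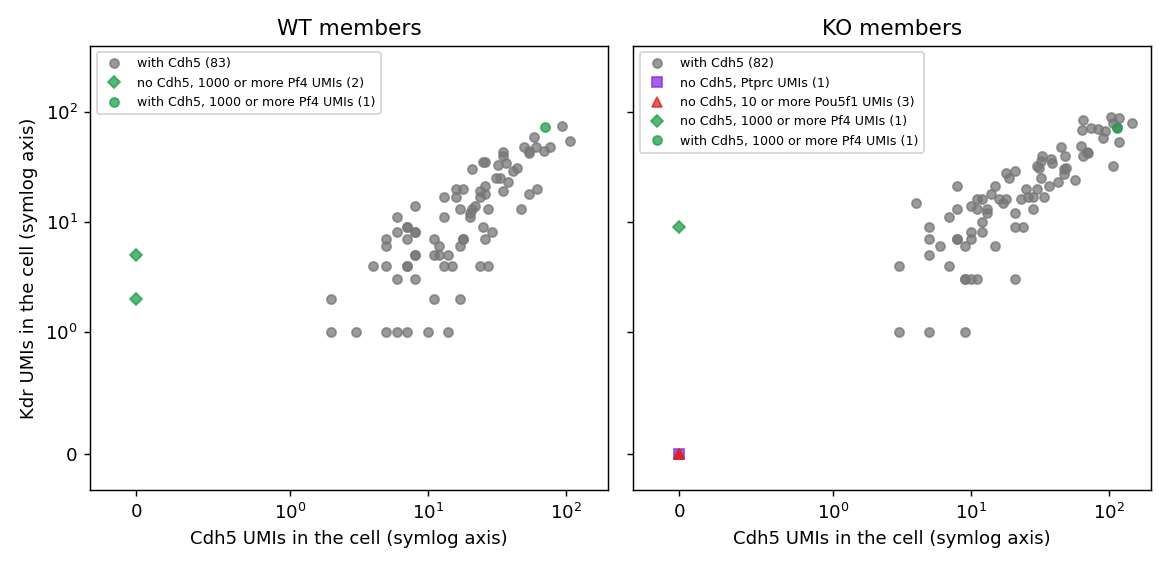
UMIs of Cdh5 (x axis) and Kdr (y axis) in each of the 86 WT and 88 KO members, with symbols for the members that lack Cdh5. Of all members, 84 WT and 83 KO cells had UMIs of both genes, and the 7 cells without Cdh5 sit at 0 on the x axis, 4 of them at 0 for Kdr as well.

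Mesenchymal marker UMIs were found in some members, and whether these were doublets was not tested. UMIs of 3 or more of 7 non-collagen mesenchymal marker genes (Pdgfra, Twist1, Twist2, Prrx1, Tcf21, Dcn, Lum) were found in 15 WT and 10 KO ECs, whose median depths were 63507 and 69829.5 UMIs against 29181 and 41880.5 in the other members. Pdgfrb itself had 27 UMIs in 14 WT ECs and 1 UMI in 1 KO EC, and 13 of these 14 and the 1 KO cell had 3 or more of the mesenchymal markers. Leaving those cells out left 1 Pdgfrb UMI in WT and 0 in KO. Over 100000 UMIs were held by 4 WT and 16 KO members. No barcode was an EC in both libraries, and 20 barcodes were shared between them among all cells used.

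The pan-endothelial program was strong and nearly level between the genotypes. All 26 genes of the list were at least 4-fold above the other cells in both libraries, where 5.69% of the 7071 genes tested were (6.11% in WT, 6.15% in KO), and their summed level was 7640 CPM in WT ECs and 8019 in KO ECs against 142 and 106 CPM in all other cells. Since the rule selected ECs by genes of this kind, this is a description. With all members, none of the 24 genes other than Cdh5 and Pecam1 differed by 2-fold between KO and WT, where 2.29% of all genes tested did. Of the 24 genes, 14 were above 0 and 10 below on the log2 scale, where all 9262 genes tested split 50.6% to 49.4%, and their median log2 ratio was 0.06 beside 0.00 over all genes.

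Within that narrow band the VEGF receptors Kdr (0.18, 0.08 to 0.27) and Flt1 leaned to KO. Flt1 (VEGFR1) was at 237 CPM in WT ECs and 310.5 in KO ECs, a log2 ratio of 0.39 (0.27 to 0.52). It was past 2-fold in 1 of 17 settings, at 1.37. Robo4, a guidance receptor that stabilizes vessels, was at 57.3 and 74.7 CPM (0.38). Tie1, an orphan receptor of the angiopoietin system, was at 194 and 191 CPM (-0.02). The lowest ratios of the list belonged to Vwf (chr6:125546774-125686679 in GRCm38), the clotting factor stored in ECs, at 194 CPM in WT and 112 in KO, a log2 ratio of -0.79 (-0.96 to -0.63), and to Clec14a, a lectin of vessel sprouts, at 135 and 93.0 CPM, a log2 ratio of -0.54 (-0.72 to -0.35). Vwf was uneven among ECs, with UMIs in 45 WT and 38 KO cells, and 232 of its 689 WT UMIs lay in 3 cells. The members with 1000 or more Pf4 UMIs held 138 of the 689 WT and 108 of the 539 KO UMIs of Vwf. Without the members that lack Cdh5 its ratio was -0.75. The plot of pan-endothelial levels shows the points of WT and KO close together for most genes.

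**Figure D2:**
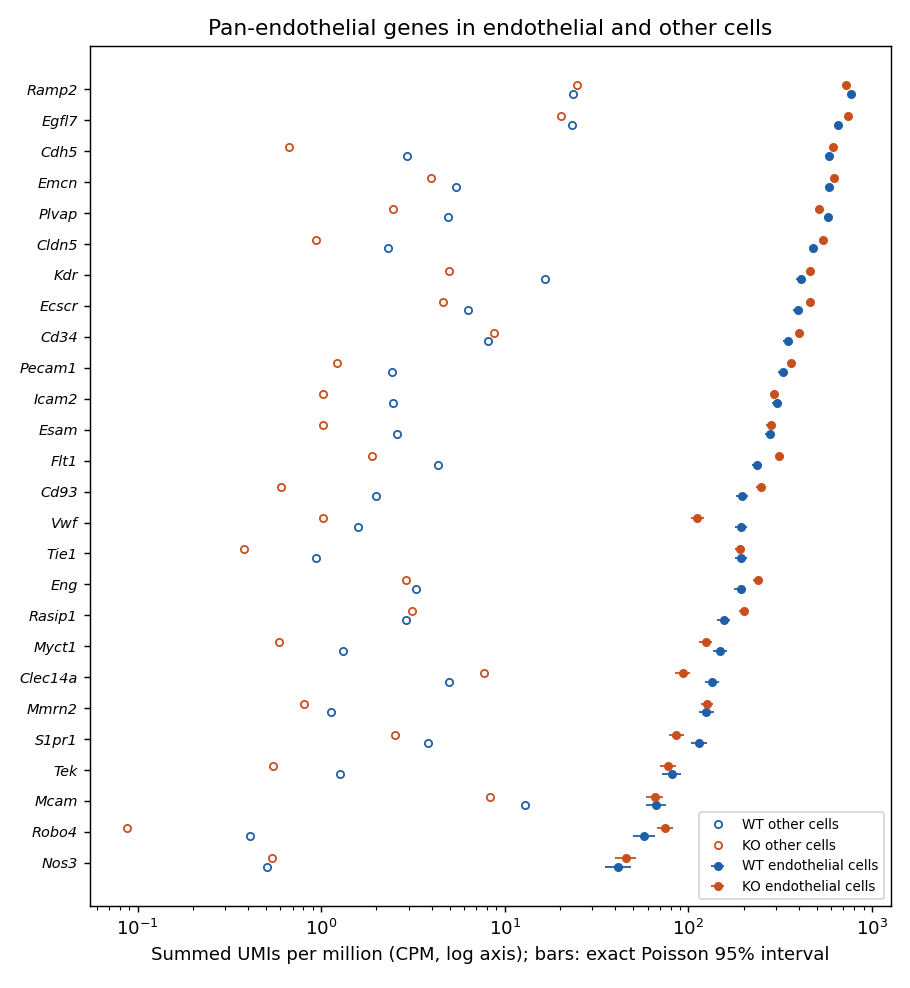
Level of each pan-endothelial gene in CPM (log axis) in the WT and KO ECs and in all other cells of each library, with exact Poisson 95% intervals for counting error. The EC points lie far to the right of those of the other cells for all 26 genes, and the WT and KO EC points of no gene are 2-fold apart, Vwf being the farthest at 194 and 112 CPM.

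The 20 genes with the highest ratio of ECs over other cells, taken in the library where it was smaller, were AU021092, Adgrl4, Aplnr, Cdh5, Cldn5, D030007L05Rik, Fam167b, Flt4, Gpihbp1, Icam2, Lhx6, Madcam1, Pecam1, Ptprb, Robo4, Scarf1, Sox17, Sox18, Tie1 and Ushbp1, of which Cdh5 and Pecam1 were the genes of the rule. Aplnr, the receptor of apelin, exceeded the other cells by 8.16 (WT) and 9.16 (KO) on the log2 scale, Gpihbp1, which carries lipoprotein lipase across ECs, by 7.58 and 8.69, and Ptprb, the phosphatase that acts on VE-cadherin and TIE2, by 7.47 and 8.35. Promoter windows, the 250 bases before a gene's start in RefSeq (GRCm38.p6), were in the table used here for 9 of the 20 genes, as 11 windows. ETS factors such as ERG and FLI1 are known regulators of endothelial genes, so the windows were searched on both strands for AGGAAG, which 7 of the 11 windows held (63.6%) beside 29.5% of all 32851 windows. TGGGAA, a string bound by RBPJ that shares GGAA with the ETS string, was in 5 of 11 (45.5%, all windows 21.6%), ACAAT, found in SOX sites, in 4 of 11 (36.4%, all 27.7%) and AGATAA, found in GATA sites, in 0 of 11 (all 9.99%). In the 9 windows found for genes of the arterial axis set described below, the same strings were in 1 (11.1%), 2 (22.2%), 2 (22.2%) and 0. Such matches are a description of letters and not of bound sites. The windows of 3 of these genes and of Apln, described below, are shown as examples, with AGGAAG or its reverse complement CTTCCT in capitals and each read 5′ to 3′ on its gene's strand. They lie at chr4:118489850-118490099 on the minus strand, chr9:37401722-37401971 on the plus strand, chr3:151437632-151437881 on the plus strand and chrX:48034854-48035103 on the minus strand.
Tie1: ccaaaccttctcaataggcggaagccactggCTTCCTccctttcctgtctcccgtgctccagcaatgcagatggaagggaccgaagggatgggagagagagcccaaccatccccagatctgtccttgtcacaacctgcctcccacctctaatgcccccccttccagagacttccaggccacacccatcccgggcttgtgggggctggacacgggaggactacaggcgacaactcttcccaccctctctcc
Robo4: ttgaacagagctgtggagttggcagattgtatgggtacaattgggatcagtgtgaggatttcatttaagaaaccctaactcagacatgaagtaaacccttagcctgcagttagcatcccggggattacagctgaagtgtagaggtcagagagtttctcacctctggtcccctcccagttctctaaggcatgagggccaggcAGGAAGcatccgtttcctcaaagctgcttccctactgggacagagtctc
Adgrl4: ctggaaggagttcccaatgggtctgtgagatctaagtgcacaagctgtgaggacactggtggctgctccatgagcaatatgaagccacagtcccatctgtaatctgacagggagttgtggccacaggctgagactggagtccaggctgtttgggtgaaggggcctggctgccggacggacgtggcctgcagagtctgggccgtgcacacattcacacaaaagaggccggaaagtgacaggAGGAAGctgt
Apln: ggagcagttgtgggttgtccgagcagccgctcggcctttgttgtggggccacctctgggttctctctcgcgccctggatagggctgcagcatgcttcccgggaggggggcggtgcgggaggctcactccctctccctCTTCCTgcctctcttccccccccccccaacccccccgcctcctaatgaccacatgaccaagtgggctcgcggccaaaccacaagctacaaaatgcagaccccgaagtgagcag
Each of these 4 windows held the string 1 time. Adgrl4, an adhesion receptor of ECs, had 218 UMIs in WT and 327 in KO ECs.

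Among transcription factors of ECs, Sox18 stood apart. Of 20 factors, 19 passed the filter used for ratios (at least 50 UMIs over both libraries and a UMI in at least 10 ECs of 1 library), 8 of them above 0 and 11 below, with a median log2 ratio of -0.03. Sox18 (chr2:181669836-181671640, minus strand), a SOXF factor of arterial and lymphatic development, was the only factor of the 19 that was 2-fold lower in KO, where 1.7% of the 9262 genes tested were lower and 0.594% higher by 2-fold. It had 700 UMIs in WT ECs and 430 in KO ECs, that is 197 and 89.5 CPM, a log2 ratio of -1.14 (-1.32 to -0.97). A UMI of it was found in 80 of 86 WT ECs and in 70 of 88 KO ECs, and its median over cells was 179 CPM in WT and 77.0 CPM in KO. The lower level was therefore not confined to a few cells. Outside the ECs Sox18 was also lower in KO, with a log2 ratio of -2.03, at 1.46 and 0.357 CPM. The ratio was between -1.33 and -0.95 over the alternative settings and was past 2-fold in 15 of the 16 in which it passed the filter, the exception being the gate lowered to 3 UMIs.

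The other SOXF factors were closer to level. Sox17 was at 104 and 94.3 CPM (-0.14) and Sox7 at 72.8 and 65.1 CPM (-0.16). Ets1 was at 180 and 218 CPM, a log2 ratio of 0.27, while Fli1 (-0.12), Erg (0.11) and Lmo2 (-0.03), a bridging factor of early ECs and blood, were near 0. Foxo1, which restrains the growth of ECs, was at 40.9 and 58.3 CPM (0.51, 0.22 to 0.81), and Foxc2, a factor of lymphatic and venous valves, at 27.9 and 14.98 CPM (-0.90, -1.36 to -0.45).

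Across all genes, 212 of 9262 (2.29%) were past 2-fold between KO and WT ECs, 55 higher in KO and 157 lower. The split turned to 111 higher and 76 lower under 5% mitochondrial UMIs and to 139 and 83 without the cells with Pdgfrb in both libraries. The latter setting left out 14 WT cells and 1 KO cell, so it changed mainly the WT sum. Of the 14 WT cells, 13 had 3 or more mesenchymal markers, as did the KO cell. The extreme ratios belonged to sex-linked genes and to genes that differed likewise in the other cells. Besides Xist and the Y-linked genes, Hist1h2ap had log2 ratios of -5.19 in ECs and -5.16 in all other cells and Gm10076 of -4.36 and -4.36. Usp50 (-3.36), Hist2h2aa1 (-2.84), Nme2 (-2.74) and Gstp1 (-2.72) were below 0 in the other cells as well, at -3.62, -2.03, -2.88 and -2.32. Gm47283 (5.18) and Enox2 (2.58) were above 0 in the other cells too, at 5.68 and 2.27. Others of the 20 most extreme genes had many of their UMIs in few cells. Nefl, a neurofilament gene (-3.90), and Aldh1a2, which makes retinoic acid (-2.62), had 47 of 66 and 70 of 104 WT UMIs in 3 cells, and in KO the same was true of Hbb-bt (922 of 1006), Hbb-y (5444 of 5646) and Chchd10 (128 of 215). Without the members that lack Cdh5, Chchd10 was still past 2-fold, at 1.92 (1.20 to 2.71), with UMIs in 14 WT and 27 KO cells. Pou5f1 lay at 4.74, and at 1.20 (-0.81 to 3.72) without the members that lack Cdh5, where its 3 WT and 9 KO UMIs did not pass the filter.

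Genes outside both patterns were then counted by a rule made after the values were seen. Of the 55 higher and 157 lower genes, 10 and 36 were past 2-fold in the same direction in the other cells. No share over all genes tested is set beside these counts. The genes that differed by less than 1.5-fold in that direction in the other cells, had UMIs in at least 20 ECs of the higher library and had under 50% of their UMIs of that library in 3 cells numbered 21 higher and 45 lower. The higher genes were led by Apln, Kcna5, Nfkbiz, Cers6 and Cenpu, and the lower genes by Rtp4, Isl1, Samd5, Hist1h3a and Igfbp5. Kcna5, a voltage-gated potassium channel, had 11 UMIs in 10 WT ECs and 54 in 29 KO ECs, that is 3.103 and 11.2 CPM (1.86, 0.90 to 2.94). Emp1, an epithelial membrane protein, had 60 UMIs in 30 WT cells and 216 in 50 KO cells, 16.9 and 45.0 CPM (1.41, 0.99 to 1.85). Isl1, a homeobox factor, had 68 UMIs in 25 WT cells and 27 in 6 KO cells (-1.77, -2.47 to -1.11), with 88.9% of its KO UMIs in 3 cells. Ackr3, a scavenger receptor of CXCL12, was at 23.1 and 10.8 CPM (-1.10). The ratios of these 4 genes were past 2-fold when the members without Cdh5, the cells with 3 or more mesenchymal markers or the cells over 100000 UMIs were left out. Kcna5 did not pass the filter without the cells over 100000 UMIs (11 WT and 32 KO UMIs). Isl1 did not pass it without the cells with 3 or more mesenchymal markers (29 and 9 UMIs). Other genes fell within 2-fold without the cells that had 3 or more mesenchymal markers. Plat, the tissue plasminogen activator, was at -0.87 in place of -1.36 and Igfbp5, which binds insulin-like growth factors, at -0.68 in place of -1.50. Slit2, a ligand of ROBO receptors, was at -0.65 (-1.79 to 0.48) in place of -1.47, but with 15 UMIs in each library it did not pass the filter. Nfkbiz, a regulator of NF-κB targets, was at 1.47 with all members. Without the cells over 100000 UMIs it was at 0.97 (-0.22 to 2.25), an interval that holds 0. Its 10 WT and 18 KO UMIs there did not pass the filter.

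Apln was the EC gene with the highest ratio of this count. Apln (chrX:48025146-48034853, minus strand) encodes apelin, the peptide ligand of APLNR and a gene of sprouting tip cells. It had 19 UMIs in 13 WT ECs and 115 in 39 KO ECs, that is 5.36 CPM (3.23 to 8.37) and 23.9 CPM (19.8 to 28.7), a log2 ratio of 2.16 (1.45 to 2.94). Its share of ECs was 15.1% in WT and 44.3% in KO, while it was seen in 0.654% and 0.885% of globin-rich cells, and with each cell thinned to 2000 UMIs the shares were 1.46% and 5.17%. In all other cells it was at 0.689 and 0.597 CPM (-0.21). Leaving out the members without Cdh5 gave 2.21, leaving out also the cells with 3 or more mesenchymal markers 1.84, and leaving out those over 100000 UMIs 2.62, so the ratio was past 2-fold in each of the 14 settings in which it passed the filter. Its receptor gene Aplnr was at 156 and 191 CPM (0.30, 0.14 to 0.45).

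The plot of Apln, Pdgfa, Sox18 and Hey2 by cell sets these levels out for single cells. Of the 4 genes, Sox18 differed in the bulk of the ECs, whereas Apln and Hey2 were at 0 in most cells of both libraries and differed in how many cells held them and how much.

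**Figure D3:**
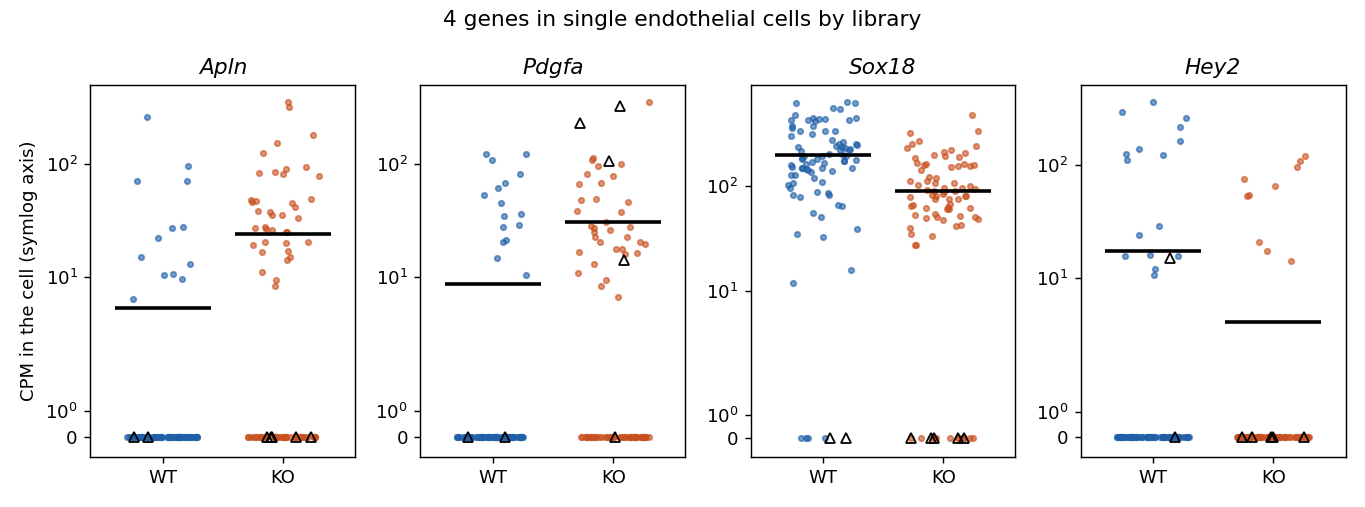
CPM of Apln, Pdgfa, Sox18 and Hey2 in each of the 86 WT and 88 KO ECs (points, with open triangles for members without Cdh5 and black bars for the level over the summed cells). Sox18 lies lower in KO across cells (median 179 against 77.0 CPM), Apln is above 0 in 13 WT and 39 KO cells, and the highest Pdgfa points of KO include members without Cdh5.

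Most arterial genes had ratios below 0, few of them past 2-fold. Of 19 arterial genes, all of which passed the filter, 5 were above 0 and 14 below, with a median log2 ratio of -0.31 beside 0.00 over all genes, and in the other cells the same genes had a median of -0.18. No gene was 2-fold higher and 2 were 2-fold lower, where 0.594% and 1.7% of all genes tested were. With only cells under 5% mitochondrial UMIs, 25 WT and 22 KO ECs, the median turned to 0.18. Hey2 (chr10:30832359-30842801, minus strand), a Notch target that directs arterial fate, had 61 UMIs in 17 WT ECs and 22 in 10 KO ECs, 17.2 and 4.58 CPM (-1.91, -2.68 to -1.19), with 42 of the 61 WT UMIs in 3 cells. Bmx (chrX:164192842-164258193, minus strand), a kinase of arterial endothelium, had 59 UMIs in 14 WT ECs and 30 in 11 KO ECs, 16.6 and 6.24 CPM (-1.41, -2.10 to -0.76), with 35 of the 59 in 3 cells. Both ratios thus rested on small numbers of cells, and both were past 2-fold in each of the 14 settings in which they passed the filter.

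Other genes of the program were closer to level. Gja5 (connexin 40) was at 33.3 and 24.3 CPM (-0.45, -0.83 to -0.07), in 21 WT and 12 KO cells. Gja4 (connexin 37) was at 151 and 134 CPM (-0.17) and Hey1 at 55.6 and 41.0 CPM (-0.44, -0.73 to -0.15). Efnb2, the arterial ephrin (-0.31), Dll4, the Notch ligand of arterial and tip cells (-0.34, -0.72 to 0.04), Jag1, another Notch ligand (-0.62, -1.12 to -0.13), Cxcr4, the CXCL12 receptor (-0.59), Mecom, a factor of arterial and hemogenic ECs (-0.43), and Vegfc (-0.40) were below 0. Epas1 (HIF2α) was at 59.5 and 76.2 CPM (0.36, 0.11 to 0.61), and past 2-fold in 1 of 16 settings, at 1.63. Jag2 (0.19), Notch1 (0.09), Notch4 (0.09) and Acvrl1 (0.11), a receptor for BMP9, were above 0 as well.

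Of the 7 genes of the venous program, 4 were above 0 and 3 below, with a median of 0.10, which was -0.04 under 5% mitochondrial UMIs. Nr2f2 (COUP-TFII) was at 169 CPM in both libraries, in 62 WT and 76 KO cells, Ephb4 at 69.4 and 67.0 CPM (-0.05), Nrp2, a VEGF-C co-receptor, at 177 and 190 CPM (0.10) and Flt4 (VEGFR3) at 64.3 and 73.5 CPM (0.19). Emcn, endomucin, was at 580 and 622 CPM (0.10). Dab2, an endocytic adaptor, was lower, at 67.4 and 41.4 CPM (-0.70, -0.98 to -0.43). Of 10 lymphatic and sinusoidal genes 6 passed the filter, 1 above 0 and 5 below (median -0.35). None was past 2-fold, where 2.29% of all genes tested were. Prox1, which directs lymphatic fate, and the hyaluronan receptor Lyve1 were each held by few cells: 99 of 131 WT and 87 of 148 KO Prox1 UMIs, and 34 of 53 and 68 of 77 Lyve1 UMIs, lay in 3 cells. The plot of ratios by gene sets the arterial, venous, lymphatic and sinusoidal, tip cell and PDGF lists side by side.

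**Figure D4:**
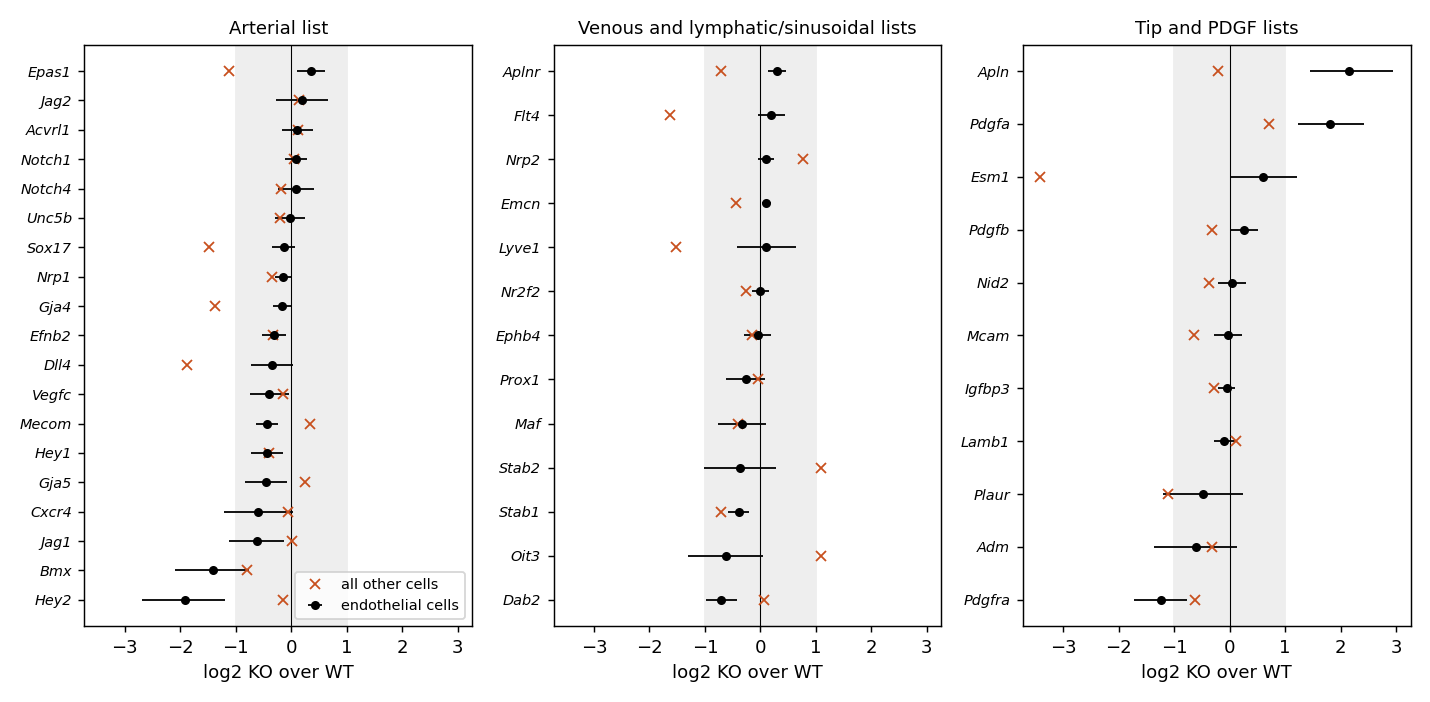
Log2 ratio of KO over WT (x axis) for each gene that passed the filter, in ECs (black, with its interval) and in all other cells (crosses). Panels show the arterial list, the venous with the lymphatic and sinusoidal lists, and the tip cell with the PDGF lists. The grey band marks ratios within 2-fold. The list medians, which are not drawn, were -0.31 for the arterial and 0.10 for the venous list.

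ECs were then set along an arterial and venous axis to see how the members varied among themselves. For each cell the UMIs of 11 arterial genes (Gja4, Gja5, Efnb2, Hey1, Hey2, Dll4, Sox17, Cxcr4, Bmx, Unc5b, Jag2) were taken as a share of those UMIs and the UMIs of 6 venous genes (Nr2f2, Ephb4, Nrp2, Aplnr, Flt4, Dab2), in the 79 WT and 83 KO cells with at least 10 such UMIs. The arterial share had a median of 34.7% (quartiles 13.2 to 71.4%) in WT and 25% (9.41 to 48.3%) in KO. Shares of 90% or more were found in 14 WT and 9 KO cells, shares of 10% or less in 15 and 22, and shares between 40 and 60% in 8 and 13. ECs thus filled the whole axis in both libraries, and 71 WT and 78 KO cells had UMIs of both sets. Thinned to 2000 UMIs per cell, the medians were 58.3% and 33.3% in 56 and 56 cells with at least 2 axis UMIs.

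Cutting the axis at the tertiles of both libraries' cells, 15.5% and 46.1%, gave 32 WT and 22 KO arterial-leaning cells, 25 and 29 in the middle, and 22 and 32 venous-leaning cells. These are ranges of a score and not cell types: 16 WT and 14 KO cells lay within 5 points of the lower cut and 3 and 7 within 5 points of the upper. Medians over cells were 1297 and 1419 CPM of the arterial set in the arterial-leaning range, with 296 and 228 CPM of the venous set. In the venous-leaning range they were 82.7 and 72.8 CPM of the arterial set and 1118 and 1069 CPM of the venous set. Since UMIs of the same genes had placed the cells, these levels are a description. Over all other cells the summed levels were 82.0 and 66.1 CPM of the arterial set and 375 and 382 CPM of the venous set. Median depths were 35566.5 and 46167.5 UMIs in the arterial-leaning and 31442 and 51538.5 in the venous-leaning range.

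**Figure D5:**
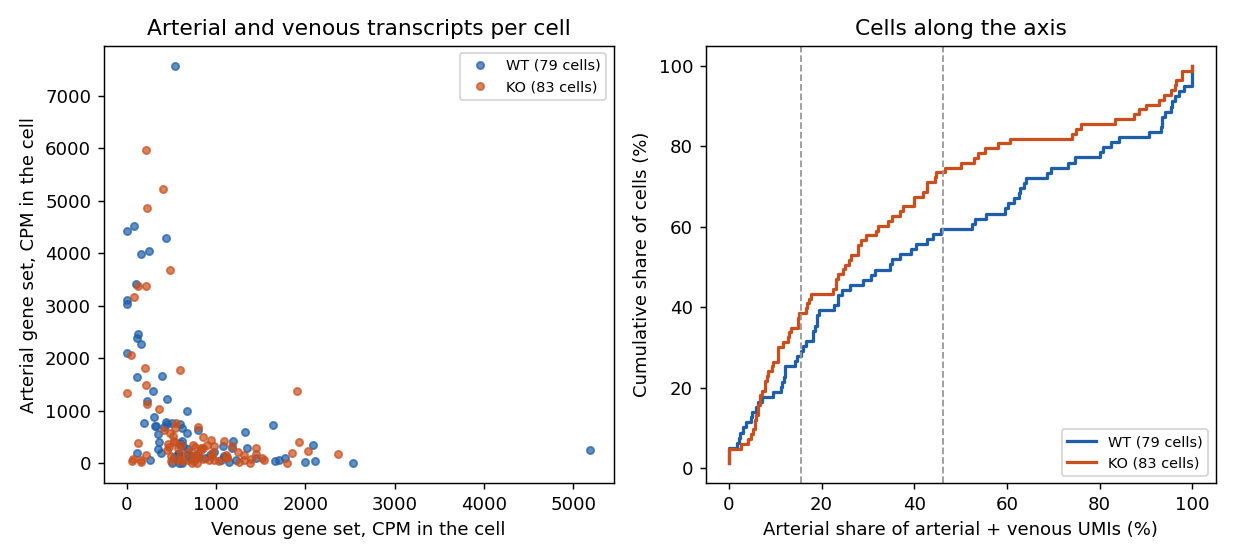
Arterial share of the arterial and venous UMIs of each EC with at least 10 such UMIs, in percent, for 79 WT and 83 KO cells, with the 2 cuts at 15.5% and 46.1%. Cells spread over the whole axis in both libraries, with medians of 34.7% in WT and 25% in KO.

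Genes outside the axis sets were then compared between the ranges, as a description, since the same cells' UMIs had placed them. Of 5381 genes, 113 (2.1%) were at least 2-fold higher in the arterial-leaning range in both libraries (5% in WT, 3.68% in KO) and 19 (0.353%) in the venous-leaning range (1.08% in WT, 1.77% in KO). Of the 10 arterial-leaning genes named by size, Fbln5, Ltbp4, Mgp and Eln encode matrix proteins. Fbln5, a fibulin of elastic fibres, was at 56.2 against 1.05 CPM in WT (log2 ratio of arterial- over venous-leaning 5.75) and at 87.0 against 3.27 CPM in KO (4.73). Ltbp4, which binds latent TGF-β (5.29 and 4.73), Mgp, matrix Gla protein (4.52 and 3.89), Eln, elastin (3.36 and 4.72), and Dkk2, a Wnt antagonist (4.07 and 3.55), followed. Many of these ratios rested on few cells. In KO 3 arterial-leaning cells held all 191 Eln UMIs, 88 of 89 Fbln5 and 89 of 91 Mgp UMIs of that range, and in WT 3 cells held 106 of 130, 50 of 68 and 53 of 58. For Dkk2 they held 40 of 64 WT and 38 of 59 KO UMIs, for Hba-a2 83 of 95 and 488 of 492, for Sat1 230 of 541 and 363 of 583, and for 8430408G22Rik 45 of 143 and 159 of 284. Ltbp4 had UMIs in 23 of 32 WT and 15 of 22 KO cells, and 3 cells held 75 of its 149 and 87 of its 133 UMIs. Igfbp3 was at 360 against 40.9 CPM in WT and 475 against 55.6 CPM in KO (3.14 and 3.09). Sat1 (3.09 and 3.67), 8430408G22Rik (3.01 and 3.44), Hba-a2 (2.64 and 5.54) and Hbb-bs (6.96 and 5.12) were the other genes named by the rule, and 630 of 642 WT and 424 of 436 KO Hbb-bs UMIs lay in 3 cells.

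Basement membrane genes shared this lean, 5 of 9 being at least 2-fold higher in the arterial-leaning range of both libraries, among them Col4a1 (1.23 in WT and 1.05 in KO), Col4a2 (1.32 and 1.05), Nid2 (2.33 and 1.77) and Sparc (1.77 and 1.11). Of 5 tip cell genes tested, 4 did so. Of the 26 pan-endothelial genes 1 did, Mcam (1.44 and 1.36), which is also 1 of those 4 tip cell genes. None of the 16 cell cycle genes was past 2-fold both times in either direction. Esm1, a proteoglycan of tip cells, had 33 WT and 47 KO UMIs in the arterial-leaning range and 0 in the venous-leaning range of both libraries. Pdgfb was at 93.4 against 34.6 CPM in WT and at 152 against 37.1 CPM in KO. Among the genes higher in venous-leaning ECs were Flrt2 (-2.44 and -2.28), Igf1, an insulin-like growth factor (-2.25 and -2.15), Cnrip1 (-2.37 and -1.98), Ptgs1, a cyclooxygenase (-1.64 and -3.07), Nr2f1, the paralog of Nr2f2 (-1.64 and -5.35), Lbp (-3.14 and -1.61), Itpr2 (-1.56 and -2.38), Ralgapa2 (-3.23 and -1.53) and Hoxc8 (-1.75 and -1.44). Of the Hoxc8 UMIs of the venous-leaning range, 44 of 45 in WT and 45 of 63 in KO lay in 3 cells, and the KO ratio of Nr2f1 rested on 1 UMI in the arterial-leaning range. For Ptgs1, 3 cells held 24 of 37 WT and 44 of 90 KO UMIs of the venous-leaning range. Of the venous-leaning Nr2f1 UMIs, 41 of 64 in WT and 48 of 73 in KO lay in 3 cells, and leaving out the cells with 3 or more mesenchymal markers took Nr2f1 from 195 to 38 UMIs in WT ECs and from 114 to 53 in KO ECs. Lyve1 had 0 UMIs in the arterial-leaning range of both libraries and 32 and 71 in the venous-leaning range.

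Apln was then followed along the axis. In WT its UMIs numbered 12 in 6 arterial-leaning cells, 3 in 3 middle cells and 4 in 4 venous-leaning cells, that is 9.92, 2.31 and 4.19 CPM. In KO they numbered 10 in 6 arterial-leaning cells, 33 in 15 middle cells and 71 in 17 venous-leaning cells, that is 9.77, 17.5 and 38.7 CPM, with 33 of the 71 in 3 cells. In the arterial-leaning range 3 cells held 9 of the 12 WT and 7 of the 10 KO UMIs. The log2 ratio of arterial- over venous-leaning cells was 1.24 (-0.48 to 3.33) in WT, whose interval holds 0, and -1.99 (-3.11 to -1.02) in KO. Aplnr was itself 1 of the 6 genes of the venous set, so its place on the axis was fixed by how the axis was made. Sox18 was lower in KO along the axis, at 258 and 137 CPM in the arterial-leaning, 173 and 96.5 CPM in the middle and 151 and 58.4 CPM in the venous-leaning cells.

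Among the PDGF genes, Pdgfb (chr15:79995874-80014977, minus strand), the ligand of PDGFRβ, was at 61.8 and 73.9 CPM (0.26, 0.01 to 0.51), in 60 WT and 62 KO ECs. It exceeded the other cells by 6.10 and 6.68 on the log2 scale. Pdgfa (chr5:138976014-138997370, minus strand), the ligand of PDGFRα, had 31 UMIs in 16 WT ECs and 147 in 39 KO ECs, 8.75 and 30.6 CPM (1.81, 1.24 to 2.42), and in the other cells it was higher as well (0.70). The 3 KO cells with Pou5f1 held 68 of the 147 UMIs. Without the members that lack Cdh5, Pdgfa was at 9.35 and 17.8 CPM (0.92, 0.31 to 1.58), which is within 2-fold. Pdgfra was at 30.5 and 12.9 CPM (-1.24), and at 3.51 and 5.95 CPM (0.76, -0.39 to 2.05) without the cells that had 3 or more mesenchymal markers. Its 9 WT and 24 KO UMIs there did not pass the filter.

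Bmp2 and Bmp4 are ligands of the BMP family. Of 21 BMP and TGF-β genes 18 passed the filter, 8 above 0 and 10 below (median -0.04), and 1 was 2-fold lower, where 1.7% of all genes tested were. Bmp2 had 61 and 36 UMIs, 17.2 and 7.49 CPM (-1.20, -1.84 to -0.58), in 21 WT and 17 KO ECs, with 31 of the 61 WT UMIs in 3 cells, and without the cells over 100000 UMIs its ratio was -2.07. Bmp4 was at 55.6 and 28.3 CPM (-0.97, -1.30 to -0.65), in 36 and 38 ECs, and at -0.36 (-0.75 to 0.02) without those cells, an interval that holds 0. Its ratio was past 2-fold in 3 of 16 alternative settings, the lowest being -1.34 under 5% mitochondrial UMIs. Smad6, an inhibitor induced by BMP signals, was at 20.6 and 12.1 CPM (-0.77, -1.29 to -0.25) and Tgfb1 at 213 and 167 CPM (-0.35). The receptors Bmpr2 (-0.10), Acvrl1 (0.11) and Tgfbr1 (0.02), and the target Id3 (-0.01), were close to 0, and Tgfbr2 was at 61.5 and 83.9 CPM (0.45, 0.21 to 0.69). In all other cells the ratios of Bmp2 and Bmp4 were -0.12 and 0.04.

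Other lists differed little as a whole. Of 14 Notch genes that passed, 7 were above 0 and 7 below (median -0.11). The target Nrarp was at 43.4 and 57.2 CPM (0.40) and the fringe Mfng at 80.7 and 96.6 CPM (0.26), whereas Hes1 (-0.30) and Rbpj (-0.35), the factor through which Notch acts on DNA, were below 0. VEGF and angiopoietin genes had 4 above and 7 below (median -0.07), tip cell genes 4 and 5 (median -0.03), with Apln past 2-fold. Angpt2, an antagonist of TIE2, did not pass the filter (26 and 15 UMIs). Basement membrane genes had 7 above and 2 below (median 0.13), with Col4a1 at 756 and 862 CPM (0.19). Flow and barrier genes had 7 above and 3 below (median 0.16): Cav1, of the caveolae, was at 100 and 149 CPM (0.58, 0.39 to 0.76), Tjp1, of tight junctions, at 173 and 242 CPM (0.48) and Klf2, the flow-induced factor, at 249 and 260 CPM (0.06), while Edn1, endothelin, was at 48.2 and 30.4 CPM (-0.67).

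Among transcripts of the cell cycle, the 16 genes of the list had 11 above and 5 below (median 0.09). None was past 2-fold, where 2.29% of all genes tested were. Cenpf, a kinetochore protein of mitosis, was highest at 190 and 307 CPM (0.69) and Rrm2 lowest (-0.34). Of 12 glycolysis and hypoxia genes 4 were above and 8 below (median -0.24). Eno1, an enolase, was past 2-fold, at 230 and 104 CPM (-1.15, -1.31 to -0.98), and in the other cells its ratio was -0.91.

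UMIs of Runx1 were found in few ECs, while those of other genes of the hemogenic list, such as Kit (49 WT and 51 KO cells) and Procr (42 and 44), were found in more. These are counts of cells with a UMI, and no share in another cell type is set beside them. The 17 genes of the list summed to 673 CPM in WT ECs and 565 in KO ECs against 149 and 142 CPM in all other cells, with Lmo2 the most abundant. Of them 11 passed, 1 above 0 and 10 below (median -0.33), where 50.6% and 49.4% of all genes tested were, and in the other cells the list had a median of -0.31. Runx1, which is required for blood to form from endothelium, had 46 UMIs in 15 WT ECs and 28 in 12 KO ECs, 13.0 and 5.83 CPM (-1.16, -1.89 to -0.45). The members without Cdh5 held 23 of the 46 and 10 of the 28, and without them the ratio was -0.74 (-1.72 to 0.21), an interval that holds 0. Without the cells that had 3 or more mesenchymal markers, 11 WT and 13 KO UMIs were left (-0.41, -1.69 to 0.89). In neither setting did Runx1 pass the filter. Kit, the receptor of stem cell factor, was at 44.3 and 27.7 CPM (-0.68), and at -0.97 (-1.35 to -0.60) without the members that lack Cdh5. Adgrg1 (GPR56) had 49 and 32 UMIs (-1.05). Without those members it had 30 and 13 UMIs (-1.59, -2.66 to -0.61), too few to pass the filter. Procr, a receptor of protein C, was at 42.0 and 22.5 CPM (-0.90, -1.27 to -0.54). UMIs of 3 or more of 7 blood genes (Runx1, Ptprc, Spn, Itga2b, Gfi1, Myb, Spi1) were found in 4 WT and 3 KO members, of which 2 and 1 had no Cdh5. Among the others, 1 WT cell had 62 UMIs of Cdh5, 4 of Runx1, 7 of Myb and 4 of Spn and an arterial share of 93.3%, and another had 5 of Cdh5, 2 of Runx1, 4 of Myb and 9 of Spi1, with 6 arterial and 0 venous axis UMIs, too few for a place on the axis. In KO 1 cell had 65 UMIs of Cdh5, 5 of Runx1, 4 of Myb and 5 of Spi1 and an arterial share of 25.9%, and another had 28 of Cdh5, 1 of Runx1 and 1 of Myb and a share of 11.8%. The WT cell with 62 and the KO cell with 28 Cdh5 UMIs were among those with 3 or more mesenchymal markers (3 and 6 of them), and the WT cell had 3 UMIs of Pdgfrb.

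Markers of other cell types were followed in the ECs of each library. The 10 mesenchymal genes summed to 395 CPM in WT ECs and 209 in KO ECs, against 2681 and 1924 CPM in all other cells, with Col1a2 and Col3a1 the most abundant, and of 8 that passed 7 were below 0 (median -0.67, other cells -0.48). Col1a1 was at 64.0 and 19.8 CPM (-1.70), and at 7.41 and 8.93 CPM (0.27, -0.57 to 1.15) without the cells that had 3 or more of the non-collagen markers, so its direction turned. The 8 mural genes summed to 146 and 115 CPM, with Acta2 the most abundant, and 166 of 205 WT and 292 of 314 KO Acta2 UMIs lay in 3 cells. The 10 macrophage genes summed to 90.6 and 75.8 CPM, with Fcer1g the most abundant (73.3 and 61.2 CPM), and Adgre1 was at 0 in both. Since the rule capped C1qa, C1qb and C1qc, these sums too were limited by the choice of members. The 9 erythroid genes summed to 366 and 1936 CPM with Hbb-y the most abundant, against 50763 and 20549 CPM in all other cells. The rule itself capped 5 of the globin genes, which kept 7 WT cells and 1 KO cell out of the ECs and all 764 WT and 226 KO globin-rich cells among the others, so these sums are a description. Epithelial genes summed to 9.03 and 17.9 CPM, against 87.5 and 42.1 CPM in all other cells. In KO, 63 of the 65 Epcam UMIs lay in 3 cells. Muscle genes summed to 0.282 and 2.50 CPM, against 45.0 and 98.2 CPM. Neural genes summed to 230 and 194 CPM, above the 131 and 110 CPM of all other cells. Almost all of the neural sum in ECs was Stmn2 (202 and 186 CPM, in 50 and 50 ECs). Stmn2 exceeded the other cells by 2.40 and 2.12 on the log2 scale. Sox10 was at 2.26 and 0.416 CPM. What part such cells had in the ratios was not tested beyond the values given with and without them.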

How the data were processed

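The authors aligned the reads to mm10 (GRCm38) with Cell Ranger 3.1.0 and deposited the unfiltered UMI counts of 31053 genes for every barcode, with no cells called and no normalization. Cells were taken here by the thresholds on UMIs, mitochondrial share and marker UMIs given above, and doublets were not removed. The WT library held 179743201 UMIs and the KO library 174597654, and the precision of a level is that of its UMI count. UMIs were summed over the ECs of a library and scaled to CPM, with exact Poisson intervals, exact conditional binomial intervals for ratios and Clopper-Pearson intervals for shares, at 95%. Ratios were described for genes with at least 50 UMIs over both libraries and UMIs in at least 10 ECs of 1 library, and genes were called past 2-fold without a test. For a gene at 0 in a library, the ratio was taken against 3 UMIs there.

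The members, the gene lists and the marker genes were chosen with earlier results of these data known. Genes named are those of the lists, the 10 with the highest and the 10 with the lowest ratio of KO over WT, the 10 each way between the axis ranges with at least 50 UMIs in the ranges of each library, the 20 with the highest ratio of ECs over other cells and the 15 with the highest Fano factor (variance over mean) at 2000 UMIs per cell. Gene positions come from GENCODE M21 (GRCm38), which held 30934 of the genes, and promoter windows from RefSeq. Calculations used Python 3.11.15, numpy 2.4.6, scipy 1.17.1 and pandas 2.3.3, figures matplotlib 3.10.9, and TMM factors edgeR 4.0.16 in R 4.3.3. The intervals, ratios and thinning were tested on simulated data. Alternatives changed the gate, the UMI and mitochondrial limits, the filter, the scaling, free RNA, depth and the cells left out, 3 of them added after seeing the data. The results of some genes that these rules name are not reported here.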

Additional observations from a re-analysis of the deposited data

Results flagged for a closer look

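Globin genes differed in direction between ECs and the other cells. The log2 ratio of KO over WT was 2.77 in ECs and -1.34 in all other cells for Hbb-y, 2.41 and -1.71 for Hba-x, and 1.15 and -1.98 for Hbb-bh1. The difference itself was not tested, and since the rule capped Hbb-y, Hbb-bh1, Hba-x, Hba-a1 and Hba-a2 in ECs and left 764 WT and 226 KO globin-rich cells among the others, the values are a description. In KO ECs 5444 of 5646 Hbb-y, 1624 of 1695 Hba-x and 112 of 117 Hbb-bh1 UMIs lay in 3 cells, while Hbb-y had UMIs in 86 WT and 73 KO ECs. Without the cells over 100000 UMIs the EC ratios were -1.82 for Hbb-y and -1.73 for Hba-x, the direction of the other cells, and Hbb-bh1 did not pass the filter.

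Sex-linked genes were also found in the barcodes of 100 or fewer UMIs, which the comparisons did not use. There Xist was at 105 CPM in the KO library, against 0.624 CPM in KO ECs, and Ddx3y and Eif2s3y were at 10.1 and 13.7 CPM in the WT library, against 0 in WT ECs. The source of these UMIs was not tested.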

How the results depend on the processing

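No paired analysis was possible because each genotype had 1 library, and no replicate could be left out. The share of ECs was 0.816% in WT and 0.852% in KO with cells from 1000 UMIs, and 0.694% and 0.755% under 5% mitochondrial UMIs. The number of genes past 2-fold was 442 with at least 20 UMIs (134 higher, 308 lower), 58 with at least 200 (15 and 43), 350 by mean CPM per cell (152 and 198) and 23 after thinning (5 and 18). The split of higher against lower genes was 76 to 110 with the gate at 10 UMIs, 111 to 76 under 5% mitochondrial UMIs and 139 to 83 with cells with Pdgfrb left out of both libraries, which took 14 WT cells and 1 KO cell. Leaving out the members without Cdh5 gave 183 genes (47 and 136), those over 100000 UMIs 155 (31 and 124) and those with 3 or more mesenchymal markers 150 (55 and 95), and TMM scaling gave 209 (62 and 147).

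The arterial median turned to 0.18 under 5% mitochondrial UMIs (25 WT and 22 KO ECs) and was otherwise between -0.46 (thinned) and -0.15 (gate at 3 UMIs). The venous median was -0.04 under 5% mitochondrial UMIs, 0.28 with the gate at 3 UMIs and 0.21 after thinning, and the pan-endothelial median 0.24 with the gate at 3, 0.36 under 5% mitochondrial UMIs and -0.18 without Pdgfrb cells. The WT arterial share was 58.3% after thinning. Genes past 2-fold with all members that changed sign, in settings where they passed the filter, were Col1a1 (1.78), Col1a2 (1.94), Pdgfra (1.77) and Nr2f1 (0.67) without those Pdgfrb cells, Col1a1 also without cells with 3 or more mesenchymal markers (0.27; 0.32 without members lacking Cdh5 as well), where Pdgfra (0.76) turned too but did not pass the filter, Hba-a1 (-3.07), Hba-a2 (-3.15), Hba-x (-1.73), Hbb-bt (-0.11) and Hbb-y (-1.82) without cells over 100000 UMIs, and Hba-a2 (-0.19) by mean CPM per cell. The cause was not tested. Of 3501 values of 227 named genes over 17 settings, 3394 kept their side of 2-fold, 24 fell within it, 71 passed it and the 12 above changed sign. Signs changed in 326 further values, of genes within 2-fold with all members. With 13 WT cells holding Apln and 17 holding Hey2, counts of cells limit these ratios.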

Other observations

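Among 3744 genes ranked by their spread over ECs at 2000 UMIs per cell, where the median Fano factor was 1.01 in WT and 1.02 in KO, the most uneven by the smaller of the WT and KO values was Pf4 (47.1 and 46.6). The 3 WT and 2 KO members with 1000 or more Pf4 UMIs held 7446 of its 7711 and 6410 of its 6514 UMIs, and 523 of 532 and 467 of 488 UMIs of Thbs1, a matrix protein that restrains angiogenesis (3.83 and 4.31). After Pf4 came Gm42418 (7.57 and 10.7), Hba-a1 (7.48 and 11.7), H19, an imprinted RNA (7.23 and 8.39), Malat1, a nuclear RNA (13.1 and 6.90), Hbb-bs (70.0 and 6.78) and Eln (5.68 and 7.20).

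In KO Kcna5 had 14 UMIs in 8 arterial-leaning cells, 31 in 16 middle cells and 9 in 5 venous-leaning cells, that is 13.7, 16.4 and 4.91 CPM, and in WT 2, 9 and 0 UMIs.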
